A study of Mus musculus with 12 samples.

Results

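In this study 9 genes known from lymphoid cells were followed in single cells labelled as haematopoietic stem cells (HSC) of the mouse, from the aorta-gonad-mesonephros region (AGM), the fetal liver and the bone marrow. The genes were chosen by name, with no threshold, as Ltb, Cd27, Il7r, Dntt, Ighm, Cd52, Satb1, Tcf7 and Ikzf1. All 9 of them occurred among the 22307 gene symbols of the series. The choice was made with earlier results of these data known, so setting the 9 beside all genes is no independent support. The cells came from a mouse line made for lineage tracing, and the labels used here give no age, strain, genotype beyond that line or sort markers. There were 2 AGM plates with 1 origin code, 5 fetal liver plates with 2 codes (plates 1 to 3 and plates 4 and 5) and 5 bone marrow plates with 2 codes (plates 1 to 3 and plates 4 and 5). A code may be an animal or a pool. For bone marrow plates 4 and 5 the tissue is given by the titles alone. Each well was meant for 1 cell, whose nucleus was taken away on beads. Its cytoplasmic messenger RNA was then made into a library by scSTRT-seq, a method that tags transcripts with unique molecular identifiers (UMIs). Some wells held few UMIs, with a median of 24 in the 48 wells left out on AGM plate 2.

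Blood stem cells give rise to the lymphoid lineages by way of progenitors that switch on lymphoid genes at low level before commitment, which is called lymphoid priming. Ltb encodes lymphotoxin beta, a membrane-bound ligand of the tumour necrosis factor family, and Cd27 a receptor of the matching receptor family. Il7r is the alpha chain of the interleukin receptor that early lymphoid cells depend on, Dntt the terminal transferase that adds bases at antigen receptor joins, Ighm the constant region of the mu heavy chain and Cd52 a small surface glycoprotein of lymphocytes. Ikzf1 (Ikaros), Satb1 and Tcf7 are nuclear regulators of lymphoid development.

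The filters kept 143 cells of AGM, 454 of fetal liver and 423 of bone marrow. They held 83152493 UMIs, and a plate 2596681 to 15977740. The median AGM cell had 159228 UMIs, the median fetal liver cell 54303 and the median bone marrow cell 59558, so shares of cells with a UMI are given after each cell was thinned to 20000 UMIs, which left 141, 419 and 392 cells. Plates still differed in UMIs per detected gene, whose median was 2 for fetal liver plate 5 and 25 for bone marrow plate 1, and the part of this in shares of cells was not tested. After thinning a cell showed 3376 genes on AGM plates, 3101 on fetal liver plates and 1910 on bone marrow plates (means of plate medians). The 12 stem cell markers summed to 1258 CPM for AGM, 1584 to 1779 for fetal liver and 1840 to 1927 for bone marrow origins. The 12 endothelial markers, in the same order, summed to 2013, 915 to 976 and 516 to 664 CPM, with Cdh5 and Plvap at 0 UMIs in bone marrow. CPM are UMI counts scaled to the library size after TMM normalization.

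Of these genes 3 were called higher in fetal liver than in AGM cells, namely Ltb, Cd27 and Ighm, where 4.83% of all tested genes were called in either direction. The same 3 were called higher in bone marrow than in AGM cells, where 8.92% of all tested genes were called. AGM was 1 library. Without fetal liver plate 4 the 3 fetal liver calls were lost, and in bone marrow those of Ltb and Ighm. On bone marrow plates 1 and 3 Ighm overlapped AGM. Between bone marrow and fetal liver no gene of the set passed the test of summed UMIs, which called 4.73% of all tested genes. Ltb, Cd52, Satb1 and Ikzf1 were found in a smaller share of bone marrow cells, as were 23.3% of all 12182 genes tested for shares. Il7r, Dntt and Tcf7 were rare in every tissue, with most of their UMIs in a few cells.

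Against AGM, Ltb and Cd27 were the called genes of the set with the most UMIs behind them. The RefSeq table of 300 bases at each gene start (GRCm38.p6) held 7 of the 9 genes, without Cd52 and Ighm. Ltb lies on chromosome 17 from 35194439 to 35196320 on the plus strand, and its window is chr17:35194257-35194556. Cd27 lies on chromosome 6 from 125232622 to 125237010 on the minus strand, inside the opposite-strand gene Vamp1, and its window is chr6:125236978-125237277, shown on the minus strand. The strand setting of the counting is unknown, and reads of Cd27 and Vamp1 may not have been told apart. The same holds for Cd52 and the opposite-strand gene Crybg2. Both windows are shown because these genes carry the rise over AGM, from 250 bases before to 50 bases after the start, with capitals marking matches to the motifs of STAT5 (TTCNNNGAA) and TCF/LEF (CTTTGA) on either strand.
Ltb: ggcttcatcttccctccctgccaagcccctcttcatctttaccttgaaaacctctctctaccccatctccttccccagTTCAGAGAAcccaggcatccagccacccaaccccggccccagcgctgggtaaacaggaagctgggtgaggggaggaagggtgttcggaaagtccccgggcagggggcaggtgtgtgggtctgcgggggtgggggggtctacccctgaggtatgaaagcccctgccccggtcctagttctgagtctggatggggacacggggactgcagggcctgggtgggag
Cd27: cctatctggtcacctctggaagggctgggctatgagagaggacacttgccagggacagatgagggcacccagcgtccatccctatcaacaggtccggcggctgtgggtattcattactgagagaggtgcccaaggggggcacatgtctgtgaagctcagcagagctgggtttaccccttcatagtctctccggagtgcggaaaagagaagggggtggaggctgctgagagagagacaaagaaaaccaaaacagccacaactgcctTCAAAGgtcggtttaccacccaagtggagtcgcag
The Ltb window held 1 STAT5 match, a motif found in 8.3% of all 32851 windows of the table, and no match to the letters of TCF/LEF, of Ikaros (TGGGAA), which are found in 25.6% of windows, of RUNX (TGTGGT), found in 16.8%, or of the TATA box (TATAAA), found in 13.6%. The Cd27 window held 1 TCF/LEF match, found in 16% of all windows, and no match for STAT5, Ikaros, RUNX or the TATA box. The ETS core GGAA, which is part of the Ikaros letters, occurred 5 times at Ltb and 2 times at Cd27, and is found in 96.0% of all windows. The E box CANNTG occurred 1 time at Ltb and 5 times at Cd27, and is found in 72.3% of all windows. All motifs were searched on both strands.

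Summed over the cells of an origin, Ltb had 420.5 and 348 CPM in the fetal liver origins, against 51.7 CPM in AGM. The fetal liver plates had 429, 432, 385, 423 and 117 CPM and the AGM plates 40.2 and 74.4 CPM. A sum over cells does not tell fewer expressing cells from less RNA per cell. Fetal liver plate 5 stood low, yet all 5 fetal liver plates lay above both AGM plates. Ltb rose 7.43-fold (log2 fold change 2.89 ± 0.31, edgeR quasi-likelihood test over 15472 genes, Benjamini-Hochberg adjusted p = 2.90e-06).

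Cd27 had 177, 156, 92.9, 182 and 217 CPM on the fetal liver plates, against 46.1 and 33.6 CPM on the AGM plates. The plates did not overlap. The receptor gene rose 4.10-fold (log2 fold change 2.03 ± 0.34, edgeR adjusted p = 6.71e-04). Ighm had 18.5, 13.0, 10.9, 24.3 and 24.3 CPM on the fetal liver plates, against 0.328 and 0 CPM on the AGM plates, where only 6 UMIs in 3 of 143 cells were found. All fetal liver plates lay above the AGM plates. Its log2 fold change was 6.48 ± 1.17 (edgeR adjusted p = 1.46e-03), a value that rests on those 6 UMIs.

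Of the 9 genes 3 thus rose and none fell in fetal liver against AGM by the edgeR test, while 4.83% of all tested genes were called, 2.92% higher and 1.91% lower. The median log2 fold change of the 9 was 2.01, against 0.05 over all tested genes. With Dntt, which had no AGM UMI, set to its bound, the medians were 1.04 and 0.03. Cd52 did not pass, with 89.8 CPM in fetal liver and 43.8 CPM in AGM (log2 fold change 1.04 ± 0.35, adjusted p = 0.106). Its plates ran from 63.5 to 111 CPM in fetal liver, against 33.9 and 63.2 CPM in AGM, and so did not overlap. Satb1 had 17.6 and 4.35 CPM (log2 fold change 2.01 ± 0.88, adjusted p = 0.258) and Ikzf1 48.5 and 28.2 CPM (0.78 ± 0.41, adjusted p = 0.385) in fetal liver and AGM. The lowest fetal liver plate was above both AGM plates for Satb1, at 7.97 against 4.98 and 3.22 CPM. For Ikzf1 the lowest fetal liver plate had 35.2 CPM, against 27.8 and 29.3 CPM on the AGM plates. How many of all genes separate the AGM plates from those of another tissue in this way was not counted. The 2 AGM plates also share 1 origin code.

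AGM rested on 1 library whose spread was assumed to be that of the others, so for AGM the tissue and its single origin cannot be told apart. Without fetal liver plate 4 all 3 calls were lost, with adjusted p = 0.146 for Ltb, 0.0661 for Cd27 and 0.0504 for Ighm, while their log2 fold changes were 2.37, 2.11 and 6.44. Ighm also lost its call without bone marrow plate 2 (adjusted p = 0.102), a plate outside the comparison that shares the model's spread, and with each plate a library (adjusted p = 0.0863). Cd52 passed, with adjusted p = 0.0222, without AGM plate 2 and in limma. Cd52 and Satb1 passed with fetal liver and AGM alone in the fit (adjusted p = 0.00596 and 0.0198). Counting cells with a UMI in place of UMIs gave Ltb a log2 fold change of 0.86 and Cd27 1.07. Between the same tissues 8 of 12 endothelial markers fell, and the part of that in these results was not tested.

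Against AGM, bone marrow cells showed the same 3 genes higher. Ltb had 187, 211, 233, 328 and 256 CPM on the bone marrow plates, against 40.2 and 74.4 CPM on the AGM plates. No bone marrow plate reached down to AGM. The gene rose 4.81-fold (log2 fold change 2.27 ± 0.30, edgeR adjusted p = 2.52e-05). Cd27 had 301, 258, 228, 191 and 129 CPM on the bone marrow plates, against 46.1 and 33.6 CPM on the AGM plates, and rose 5.12-fold (2.36 ± 0.35, adjusted p = 9.72e-05). Plates 1 to 3 of bone marrow lay above plates 4 and 5 for Cd27, with 269 and 156 CPM in the 2 origins.

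Ighm was uneven in bone marrow, with 0.0966, 20.2, 0, 28.9 and 5.54 CPM on its plates, against 0.328 and 0 CPM on the AGM plates. Bone marrow plates 1 and 3 overlapped AGM and the other 3 lay above it. Its log2 fold change was 5.56 ± 1.13 (edgeR adjusted p = 2.50e-03), and the call was lost in 6 of 26 alternatives, among them without bone marrow plate 2 (adjusted p = 0.137), where 1 cell held 88 of the 232 bone marrow UMIs. By the same test 8.92% of all tested genes were called, 5.29% higher and 3.63% lower, beside 3 of the 9. Without fetal liver plate 4 the calls of Ltb and Ighm were lost here too (adjusted p = 0.114 and 0.0601), and that of Cd27 was not (adjusted p = 0.0289). Cd52, at a log2 fold change of 0.50 ± 0.34, Satb1, at 0.70 ± 0.83, and Ikzf1, at 0.69 ± 0.41, missed the threshold. Between these tissues 10 of 12 endothelial markers fell, and their part in the result was not tested.

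**Figure D1:**
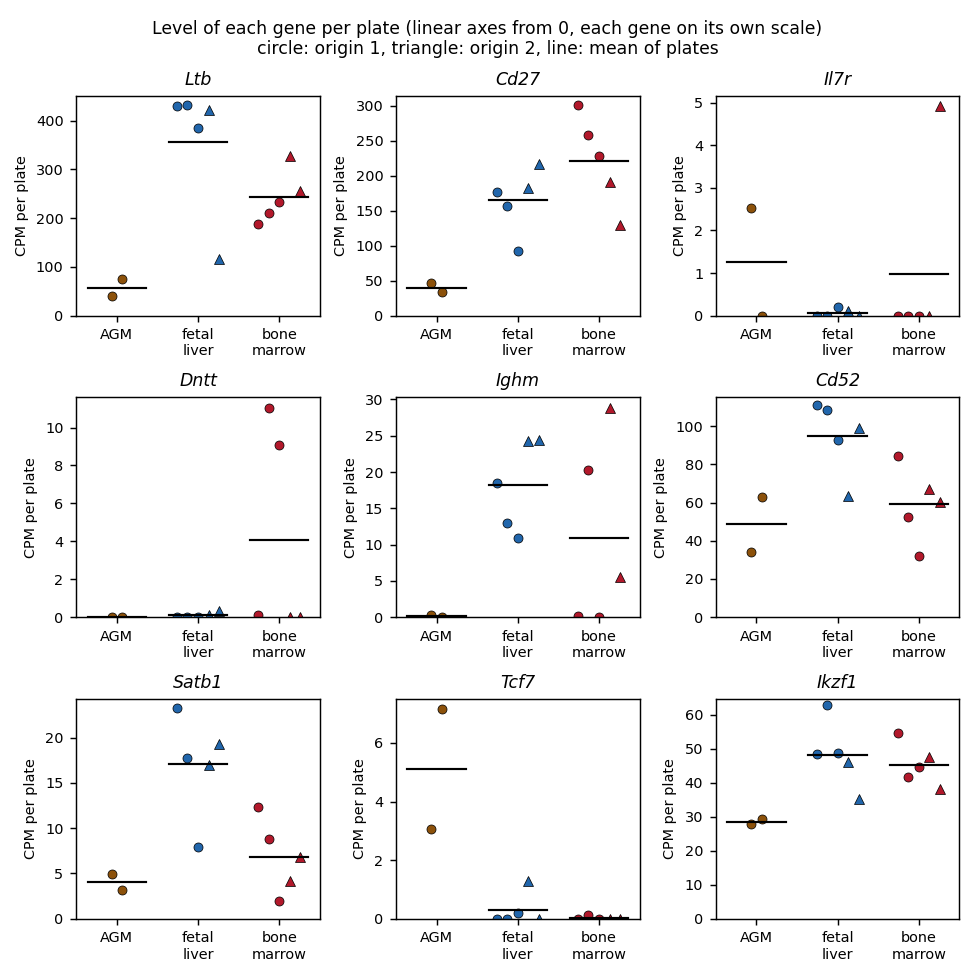
CPM of each of the 9 genes (vertical axes, linear, from 0, a separate scale for each gene) on each plate of AGM, fetal liver and bone marrow, with circles for the first origin code of a tissue, triangles for the second and a line at the mean of plates. Ltb and Cd27 are higher on all fetal liver and bone marrow plates than on both AGM plates, fetal liver plate 5 stands low for Ltb at 117 CPM, and Il7r, Dntt and Tcf7 are near 0 on most plates.

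Between bone marrow and fetal liver 0 of the 9 genes passed the edgeR test, by which 4.73% of all tested genes were called, 2.68% higher and 2.06% lower in bone marrow. At an unadjusted edgeR p under 0.05 there was 1 of the 9, Ltb, and the share of all genes at that level was not counted. Ltb had 249.5 CPM in bone marrow and 384 CPM in fetal liver (log2 fold change -0.62 ± 0.22, adjusted p = 0.122), and fetal liver plate 5, at 117 CPM, lay below every bone marrow plate while the other 4 lay above them all. Cd27 had 213 and 170.5 CPM (0.32 ± 0.25, adjusted p = 0.566) and its plates overlapped. Ighm, Cd52, Satb1 and Ikzf1 had log2 fold changes of -0.92 ± 0.66, -0.54 ± 0.27, -1.31 ± 0.67 and -0.09 ± 0.33, bone marrow over fetal liver. Without bone marrow plates 4 and 5, Ltb was lower (adjusted p = 2.43e-04) and Cd27 higher (adjusted p = 0.0219) in bone marrow. DESeq2 called none of the 9 and limma called Ighm.

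**Figure D2:**
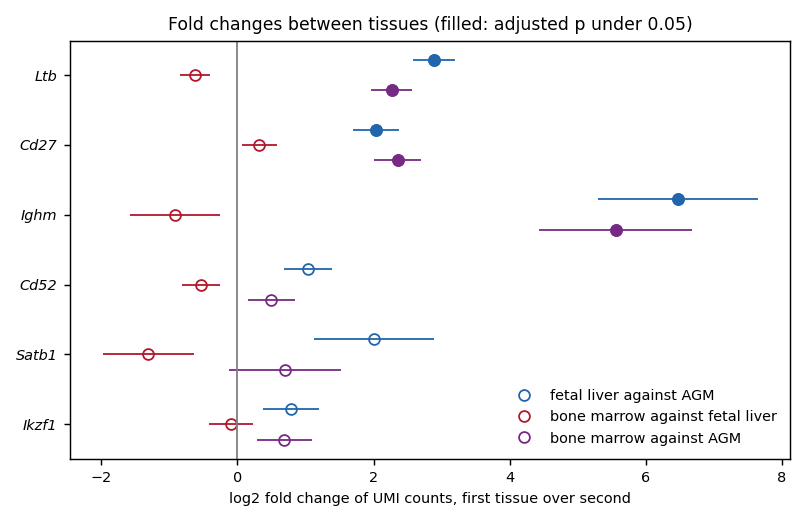
Log2 fold changes of summed UMIs (horizontal axis, first tissue over second) with their approximate standard errors for the 6 genes found in most plates, in 3 comparisons, filled where the edgeR adjusted p was under 0.05. Ltb, Cd27 and Ighm are to the right of 0 in fetal liver and in bone marrow against AGM, and no filled point belongs to bone marrow against fetal liver.

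Shares of cells gave another picture of bone marrow and fetal liver than summed UMIs. Ltb was found in 43.5%, 54.3%, 63.4%, 80.3% and 71.0% of thinned cells on the bone marrow plates, against 96.6%, 95.6%, 93.2%, 92.3% and 82.7% on the fetal liver plates. No bone marrow plate reached the lowest fetal liver plate. The means were 62.5 ± 14.3% and 92.1 ± 5.54% (SD, n = 5 plates each, exact two-sided permutation p = 0.00794, adjusted p = 0.0329 over 12182 genes). With 5 plates against 5 this is the smallest p possible, and plates of 1 origin code share their source, so it can be too small.

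Cd52 was found in 17.4%, 19.1%, 11.3%, 18.2% and 17.4% of cells on the bone marrow plates, against 50.6%, 42.9%, 34.2%, 33.0% and 65.3% on the fetal liver plates. The plates did not overlap, and the means were 16.7 ± 3.11% and 45.2 ± 13.3%. Ikzf1 was found in 19.6%, 19.1%, 23.9%, 21.2% and 18.8% against 39.3%, 40.7%, 24.7%, 36.3% and 40.0%, with fetal liver plate 3 next to the highest bone marrow plate. Satb1, a chromatin organiser of developing T cells, was found in 4.35%, 2.13%, 1.41%, 3.03% and 2.90% against 18.0%, 13.2%, 6.85%, 14.3% and 32.0%. Each of these 3 had the same exact p of 0.00794 and adjusted p of 0.0329 as Ltb.

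These shares have to be read beside all genes: the same exact test called 24.1% of all 12182 genes, 0.78% higher and 23.3% lower in bone marrow, and 85.6% of genes had a lower mean share there, with a median difference of -5.41 percentage points. Of the 9 genes 4 were called, all lower, 2 did not pass and 3 were found in under 5% of cells of every plate and were not tested. Cd27 had means of 55.4 ± 9.24% in bone marrow and 64.7 ± 17.2% in fetal liver (exact permutation p = 0.294, adjusted p = 0.425). Ighm had 3.36 ± 3.16% and 12.8 ± 8.73% (exact permutation p = 0.0397, adjusted p = 0.0982). The differences of the 4 called genes ran from -14.1 points for Satb1 to -29.6 points for Ltb.

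How firmly these 4 calls stand depends on what counts as detection. At 10000 UMIs a cell Ltb did not pass (adjusted p = 0.0968 by the exact permutation test) and the other 3 did. Counting cells with at least 2 UMIs, Ltb and Ikzf1 did not pass (0.0852 and 0.0696). Without thinning, Cd52 and Satb1 passed (adjusted p = 0.0448 each by the exact permutation test) and Ltb and Ikzf1 did not (0.0806 and 0.112). Counting only cells with at least 4 UMIs, an alternative added after the data were seen, Cd52 passed (10.3% in bone marrow and 24.5% in fetal liver, adjusted p = 0.0471), and Ltb, Satb1 and Ikzf1 did not (0.163, 0.134 and 0.163). No gene of the series passed without a whole origin code, where the smallest exact p possible is 0.0476 or 0.0179, or without bone marrow plate 1 or plate 2. Without those plates the adjusted p of Ltb and Cd52 was 0.0524 and 0.0503, and that of Satb1 and Ikzf1 0.0676 and 0.066. Satb1 and Ikzf1 lost their calls without any 1 bone marrow plate (0.0588 to 0.0676), and Cd52 without plates 1, 2 or 3. Ltb lost its call also without fetal liver plate 1, 2, 4 or 5 (0.0545 to 0.0586). Cd27 passed without fetal liver plate 3 (0.0491) and Ighm without fetal liver plate 2 (0.0376).

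On the 2 AGM plates, whose shares were not tested, Ltb was found in 29.5% and 39.1% of thinned cells, Cd27 in 33.7% and 23.9%, Cd52 in 21.1% and 28.3%, Ikzf1 in 25.3% and 30.4% and Satb1 in 5.26% and 4.35%. For Ltb, Cd27 and Satb1 both AGM plates lay below every fetal liver plate. Cd52 in AGM lay below every fetal liver plate and above every bone marrow plate, and Ikzf1 in AGM was above every bone marrow plate and overlapped fetal liver. Ighm was found in no thinned AGM cell and in 3 of 143 without thinning. Without thinning Ltb was found in 72.7% of AGM cells, 95.6% of fetal liver cells and 74.9% of all cells from bone marrow, and Cd52 in 65.0%, 60.6% and 25.1%.

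**Figure D3:**
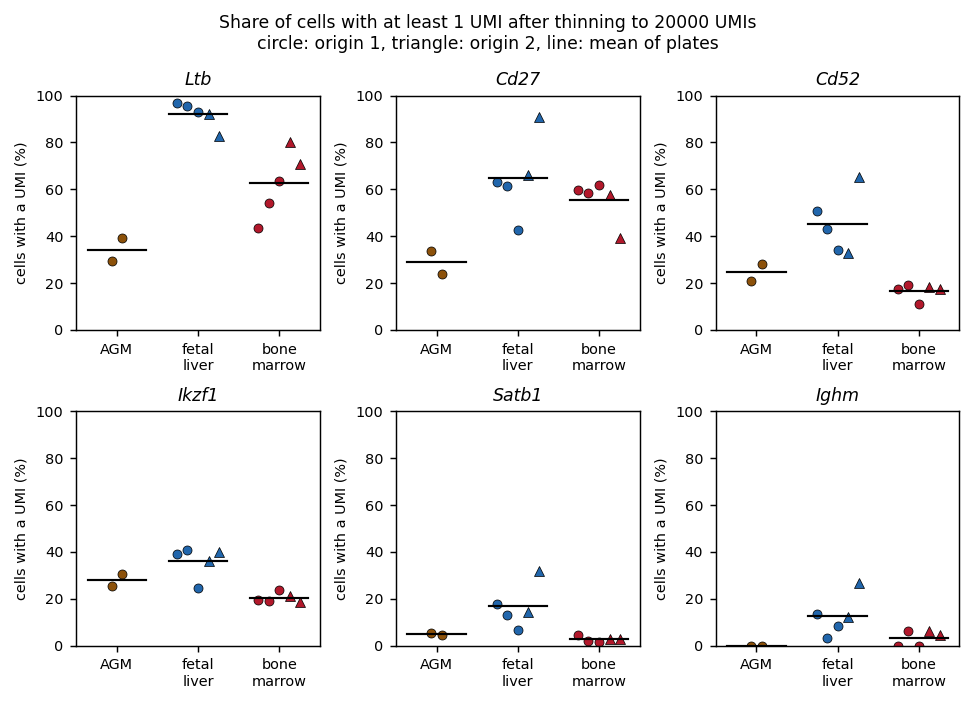
Share of thinned cells with at least 1 UMI (vertical axis, percent) on each plate of AGM, fetal liver and bone marrow for 6 genes, with circles for the first origin code, triangles for the second and a line at the mean of plates. Ltb, Cd52, Ikzf1 and Satb1 are lower on all 5 bone marrow plates than on all 5 fetal liver plates, and Cd27 and Ighm overlap.

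Nearly all UMIs of Dntt came from bone marrow, and few cells held them. It had 0.0966, 11.1, 9.09, 0 and 0 CPM on the bone marrow plates, against 0, 0, 0, 0.118 and 0.338 CPM on the fetal liver plates and no UMI in 143 AGM cells, which allows a share of cells with a UMI of up to 2.10% by counting error alone. All but 1 of its 153 bone marrow UMIs lay on plates 2 and 3, which share an origin code. Of 17 bone marrow cells with Dntt 14 had a single UMI, and 3 had 28, 45 and 66 UMIs. The bone marrow origins had 6.08 and 0 CPM. Neither the comparison with fetal liver, where 2 UMIs were found, nor that with AGM passed the edgeR test (adjusted p = 0.394 and 0.294). Without bone marrow plates 4 and 5 the adjusted p against AGM was 0.0492.

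Tcf7, which encodes the T lineage factor TCF1, was by contrast found mostly in AGM. Its AGM plates had 3.06 and 7.16 CPM, its fetal liver plates 0, 0, 0.21, 1.30 and 0 CPM, and its bone marrow plates 0, 0.135, 0, 0 and 0 CPM. The 125 AGM UMIs lay in 10 of 143 cells, 6 of which had at least 4, and 46 of them in 1 cell. Fetal liver had 12 UMIs, 11 of them in 1 cell of plate 4, and bone marrow had 1 UMI. AGM exceeded bone marrow 136-fold in summed UMIs (95% counting interval 24.0 to 5421), and the edgeR log2 fold changes of -6.97 ± 3.20 for bone marrow and -3.11 ± 2.68 for fetal liver, each over AGM, did not pass (adjusted p = 0.218 and 0.639). In limma with plates as libraries both passed (adjusted p = 4.66e-04 and 4.05e-03).

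Il7r was nearly absent from the libraries. AGM held 46 UMIs, 44 of them in 1 cell of plate 1, fetal liver held 2 UMIs in 2 of 454 cells, and bone marrow held 16 UMIs, all in 1 cell of plate 5. No comparison passed, and the sign of its log2 fold change against AGM turned without AGM plate 1 (3.19 for fetal liver in place of -4.34, and 7.32 for bone marrow in place of -0.18).

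Many detections of the low genes were single UMIs, beside cells with many. Of the cells with Ighm, 21 of 29 in bone marrow and 53 of 92 in fetal liver had 1 UMI, while 8 and 27 had at least 4. Of the Satb1 cells 6 of 16 in bone marrow and 55 of 113 in fetal liver had 1 UMI. Ltb differed, with a median of 3 UMIs per positive AGM cell, 16.5 per positive fetal liver cell and 8 per positive bone marrow cell. Wells left out as cells held 48 UMIs of the 9 genes in 107785 UMIs, or 445 CPM, beside 524 CPM in kept cells (both without TMM). The AGM wells left out held 2657 and 1877 of the 107785 UMIs on plates 1 and 2 and none of the 48. Kept AGM cells held 24323995 of the 83152493 kept UMIs, so the mix of tissues differs between the 2 values. How many of the single UMIs are background was not tested.

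The 12 cells with at least 4 UMIs of Il7r, Dntt or Tcf7 were read one by one, after their values were seen. The 3 Dntt cells, all from bone marrow, had 53, 61 and 65 UMIs of Cd52, while 104 was the highest Cd52 count of any bone marrow cell and only 44 of 423 cells had at least 4. One of them (plate 2) also held 49 UMIs of Ighm, 44 of Cd27 and 74 of Flt3, the receptor tyrosine kinase of early lymphoid progenitors, another (plate 3) held 36 of Flt3, and the other one (plate 2) held 81 of Nkg7, a granule protein of cytotoxic cells, and 4 of Flt3. None of the 3 had a UMI of Il7r, Cd79a, Cd3e, Rag1 or Ebf1. In all bone marrow cells these genes had only 16, 0, 1, 0 and 4 UMIs, so their absence does not tell the 3 cells from the rest. The plate 2 cells held 1 UMI of Cd79b each, and the plate 3 cell held none. The AGM cell with 44 UMIs of Il7r had 60 of Cd27, 70 of Nkg7 and 138 of Mpo, a granule enzyme of myeloid cells that was found in 91.5% of thinned AGM cells. The bone marrow cell with Il7r had 16 of it in 4722 UMIs in all, with 6 of Cd52 and 2 of Ltb. The 6 AGM cells with at least 4 UMIs of Tcf7 had 1 to 129 UMIs of Cdh5, the endothelial cadherin. That gene was found in 66.7% of all thinned AGM cells. None of the 6 had a UMI of Il7r, Dntt or Cd3e. Il7r was found in only 3 of 143 AGM cells, and Dntt and Cd3e had 0 UMIs in all of them. These absences thus do not tell the 6 cells from the rest. A cell of plate 2 held 34 UMIs of Cd79b and 1 of Cd3g, and a cell of plate 1 held 5 of Gata3 and 4 of Ighm.

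A thinned cell showed 1.25 ± 0.08 of the 9 genes in AGM (SD, n = 2 plates), 2.68 ± 0.47 in fetal liver (n = 5) and 1.63 ± 0.16 in bone marrow (n = 5). Over all genes it showed 3376, 3101 and 1910 in the same order (means of plate medians). Bone marrow was thus below fetal liver over all genes too, while AGM was not. The part of this in the counts of the 9 was not tested. Cells with none of the 9 made up 31.9% of the AGM, 0.955% of the fetal liver and 10.2% of the bone marrow cells, and at least 4 were found in 2.84%, 24.8% and 2.81%. No thinned cell showed more than 5. Thinned cells with at least 4 of the genes also showed more genes in all. Their medians were 3702, 3312 and 2183, against 3278, 2789 and 1828 in cells with 0 or 1. Without thinning the means of plates were 2.73, 3.33 and 2.18 of the genes in the same order of tissues, with AGM above bone marrow. Cells with none then made up 5.59%, 0.881% and 3.31%, and at least 4 were found in 30.8%, 47.4% and 10.2%.

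**Figure D4:**
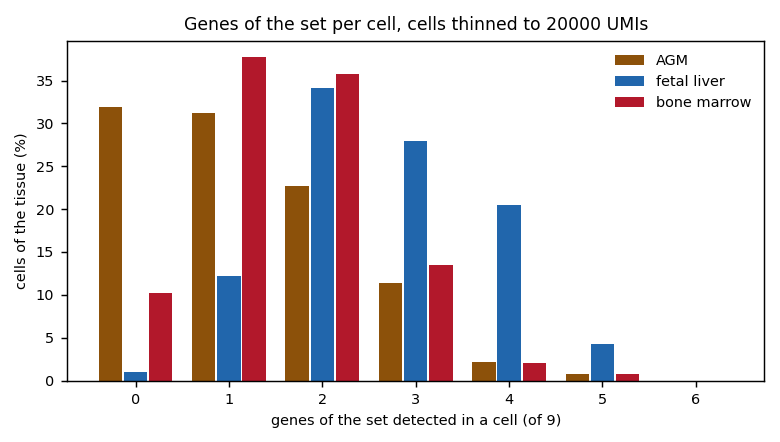
Share of cells (vertical axis, percent) by the number of the 9 genes found in a cell after thinning to 20000 UMIs (horizontal axis), for AGM, fetal liver and bone marrow. AGM peaks at 0 and 1 with 31.9% and 31.2% of cells, fetal liver at 2 with 34.1% and bone marrow at 1 with 37.8%. Over all genes a thinned cell showed 3376, 3101 and 1910 in the same order of tissues (means of plate medians).

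AGM cells with none of the genes were the most common there, followed by cells with Ltb alone (11.3%) and Cd27 alone (8.51%). The most common combination in fetal liver was Ltb with Cd27 and none of the others, in 14.3% of cells, followed by Ltb, Cd27 and Cd52 and by Ltb alone in 10.3% each. In bone marrow Ltb alone (18.9%) and Ltb with Cd27 (18.6%) led, followed by Cd27 alone (14.0%).

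Over all 36 pairs, cells with both genes numbered 108 in AGM, where the shares within each plate gave 82.6 (ratio 1.31, plates 1.03 and 1.47). They numbered 1190 in fetal liver, where the shares gave 1178 (1.01, plates 0.976 to 1.08), and 377 in bone marrow, where they gave 364 (1.04, plates 0.955 to 1.21). These are descriptions with no test, since cells of a plate share their source and a cell enters many pairs. Without thinning the ratios were 1.13 for AGM, 1.04 for fetal liver and 1.05 for bone marrow. Ltb was found in 92.4% of thinned fetal liver cells, which leaves the ratio of a pair with Ltb little room above 1. In AGM it was found in 32.6%, so the ratios of the tissues cannot be compared directly.

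Among the 15 fetal liver pairs with at least 5 cells expected, 9 lay above the expected count and 6 below. Cd27 with Ighm was found in 43 cells beside 37.3 expected and Ltb with Ighm in 50 beside 46.7, each above on 5 of 5 plates. At 10000 UMIs a cell they were found in 27 beside 21.7, above on 4 of 5 plates, and in 28 beside 27.7, above on 2 of 5. Ighm with Satb1 was found in 5 cells beside 10.9 expected and Satb1 with Ikzf1 in 22 beside 26.7, each above on 1 of 5 plates. Without thinning the ratio of Ighm with Satb1 was 0.798 and that of Satb1 with Ikzf1 0.986, and at 10000 UMIs they were 0.912 and 0.998.

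In bone marrow 7 of 10 such pairs lay above the expected count. Cd27 with Ighm was found in 10 cells beside 6.99 expected, above on each of the 3 plates where the pair was possible, and Cd27 with Satb1 in 9 beside 6.12. Ltb with Cd27, the pair with the most cells, was found in 125 beside 131 expected. In AGM all 6 pairs lay at or above it, with Cd52 and Ikzf1 in 15 cells beside 9.01 expected and Cd27 and Cd52 in 15 beside 9.85, each above on both plates. The 3 pairs with Ltb were above on 1 of 2 plates, with 18 cells beside 13.7 expected for Cd27, 13 beside 12.5 for Ikzf1 and 11 beside 10.98 for Cd52. At 10000 UMIs Ltb with Ikzf1 had a ratio of 0.815, and over all pairs the AGM plates gave 0.735 and 1.55. Dntt with Cd52 could be judged only without thinning, where it had the highest bone marrow ratio, 1.47.

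**Figure D5:**
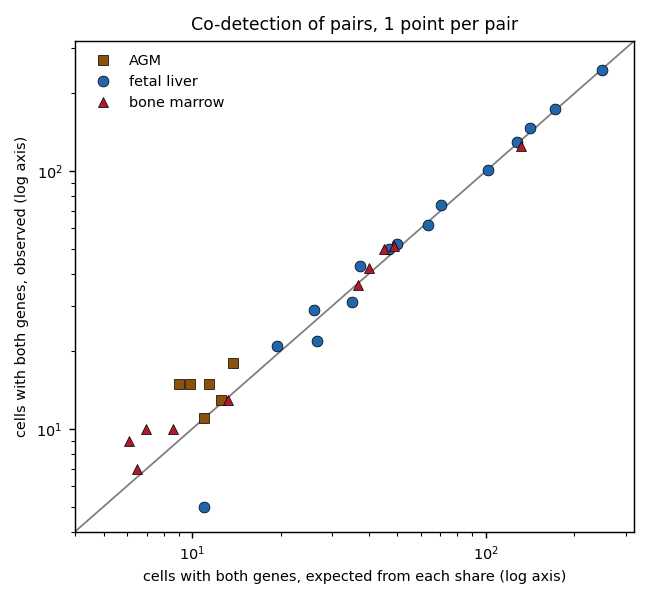
Cells in which both genes of a pair were found (vertical axis, log scale) against the number expected from the shares of the genes within each plate (horizontal axis, log scale), 1 point per pair with at least 5 expected cells, with the line of equality. The point farthest below the line is Ighm with Satb1 in fetal liver (5 beside 10.9), and the 6 AGM points lie on or above it.

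The number of these genes in a cell was set beside 8 other genes of the same cell, and no partner gave the same direction on all plates of all tissues. In AGM the 30 thinned cells with Ptprc (CD45, the surface phosphatase of blood cells) showed 1.93 of the 9 genes, against 1.07 in the 111 cells without, higher on both plates, and 375 more genes in all. Within AGM, Cd52 was found in 43.3% of cells with Ptprc and 18.0% of cells without, Ikzf1 in 50% and 20.7% and Satb1 in 20% and 0.901%, each higher with Ptprc on both plates. Ltb was found in 33.3% and 32.4%. For Ptprc the difference was -0.07 of the genes in fetal liver (higher on 2 of 5 plates) and -0.07 in bone marrow (higher on 1 of 5).

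In fetal liver the 153 cells with Flt3 showed 2.92 of the genes and the 266 cells without showed 2.54, higher on 5 of 5 plates, with 129 more genes in all. The difference for Flt3 was 0.28 in bone marrow (higher on 4 of 5 plates) and -0.28 on the 1 AGM plate with enough cells. In bone marrow the 130 cells with Procr, a surface receptor that marks stem cells, showed 1.81 and the 262 cells without showed 1.53, higher on 5 of 5 plates, with 128 more genes in all. For Procr the difference was -0.66 in AGM, on both plates, and -0.04 in fetal liver. The part of the gene number in these differences was not tested.

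Beyond the set, 3 lists of lymphoid genes were read from the same edgeR fit. Their counts stand beside the 4.83%, 4.73% and 8.92% of all genes called in fetal liver against AGM, bone marrow against fetal liver and bone marrow against AGM, and no list was tested against that share. Of 25 tested genes of lymphoid receptors and their signalling 3 rose and 0 fell in fetal liver against AGM, with a median log2 fold change of 0.48 beside 0.05 over all tested genes. They were Il2rg, the common gamma chain that pairs with Il7r, at 91.2 CPM in fetal liver and 25.6 CPM in AGM (log2 fold change 1.83 ± 0.34, adjusted p = 2.04e-03), Flt3 at 51.4 and 13.7 CPM (1.91 ± 0.50, adjusted p = 0.0290) and Stat5b, a transducer of cytokine signals, at 13.6 and 2.78 CPM (2.29 ± 0.66, adjusted p = 0.0496). The call of Stat5b was lost in 20 of 26 alternatives and that of Flt3 in 11 of 26, with the log2 fold change of Flt3 at 0.90 without AGM plate 1. Against AGM, 3 of the 25 rose in bone marrow, Stat5b (34.7 and 2.78 CPM), Il2rg (78.5 and 25.6 CPM) and the kinase gene Jak1 (184 and 90.7 CPM, a call lost in 16 of 26 alternatives), with a median of 1.18 beside 0.04. Between bone marrow and fetal liver 0 of the 25 passed, with a median of 0.32 beside 0.

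Of 26 tested lymphoid transcription factors 0 passed in fetal liver against AGM (median log2 fold change -0.22). Gata3, a factor of T cell fate, was the one that rose in bone marrow against fetal liver, at 45.0 and 13.8 CPM (1.71 ± 0.41, adjusted p = 0.0190), and Etv6, an ETS family repressor, the one in bone marrow against AGM, at 79.3 and 32.2 CPM (1.30 ± 0.37, adjusted p = 0.0324). Medians were 0.10 and 0.12, and the second was -0.02 with genes at 0 set to their bounds. The call of Gata3 was lost in 7 of 26 alternatives and that of Etv6 in 10 of 26.

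Of 21 tested genes of the antigen receptor loci and their machinery 1 rose in fetal liver against AGM. It was Cd79b, at 126 CPM in fetal liver and 33.3 CPM in AGM (log2 fold change 1.93 ± 0.34, adjusted p = 1.04e-03). In bone marrow against fetal liver 2 fell, Cd79b, at 65.1 and 126 CPM (-0.96 ± 0.25, adjusted p = 0.0314, a call lost in 8 of 26 alternatives), and Trbc2, a constant region of the T cell receptor beta chain, which had no entry in any bone marrow table, read as 0 UMIs, and 734 UMIs in fetal liver (adjusted p = 1.44e-05). Trbc2 also fell against AGM, where it had 382 UMIs (adjusted p = 3.03e-05), and these 2 calls held in all 26 alternatives. Medians were 0.22, -0.09 and 0 in fetal liver against AGM, bone marrow against fetal liver and bone marrow against AGM. Except for Trbc2, the calls named from the 3 lists were all lost without fetal liver plate 4.

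Marker genes of other cells were read beside these values. The B cell markers, Cd79b among them, summed to 40.0 CPM in AGM, 135 to 137 in fetal liver and 66.4 to 76.7 in bone marrow, with Ms4a1 at 0 UMIs in AGM and bone marrow. Cd79b alone gave 33.3, a mean of 126 and a mean of 65.1 CPM of these sums, so they are mostly 1 gene, while Cd79a had 32, 17 and 0 UMIs. The T cell markers summed to 34.6, 31.4 to 33.3 and 20.9 to 28.1 CPM, with Cd3d and Cd3e at 0 in AGM, Cd3e at 0 in fetal liver and Cd3d at 0 in bone marrow. Lck had the most UMIs of that list in each tissue, with 814, 596 and 498. It was found in 21.3%, 18.1% and 9.69% of thinned cells. The markers of natural killer and innate lymphoid cells summed to 31.1, 9.74 to 10.7 and 63.3 to 115 CPM, of which Nkg7 gave 22.9, a mean of 7.17 and a mean of 74.0 CPM. The erythroid markers summed to 135 CPM in AGM, 74.6 to 2031 in fetal liver and 212 to 363 in bone marrow. The myeloid markers summed to 829.5, 1086 to 1095 and 1426 to 1667 CPM, with 2 of 11 higher and 2 lower in fetal liver against AGM and 3 higher and 2 lower in bone marrow against AGM. The megakaryocyte markers summed to 281, 302 to 426 and 395.5 to 477 CPM. Of the 12 stem cell markers 7 rose in fetal liver and 6 rose and 1 fell in bone marrow, each against AGM. The part of these markers in the results was not tested.

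The genes whose levels over the 12 plates were most like each of the 9 were found by the root mean square difference in centred log2(CPM + 1), among genes with at least 20 CPM. Ltb was nearest to Spint2 (0.44), Prkcq (0.52) and Zfp467 (0.54), where the median gene differed from Ltb by 1.16. Cd27 was nearest to Ethe1 (0.33), Letm2 and Adgrl4 (0.38 each), beside a median of 1.07. Ikzf1, which varied least over plates (SD 0.33 on this scale), was nearest to Acsl5 (0.16), Ccm2 and Hprt (0.18 each), beside 0.61. Cd52 was nearest to Rdm1 (0.32), Mad2l1bp (0.33) and Bcl2l12 (0.34), and Satb1 to Mgst2 (0.38), Cdc42se2 (0.44) and Rdh12 (0.48). Ighm, which varied most (SD 1.96), had no near neighbour, the nearest being Wfdc2 (1.21), Gm11110 (1.21) and Tmem53 (1.22). For the rare genes the nearest were Kat7, Foxo1 and Ckap2 for Il7r (0.56 to 0.59), Ap4s1, Mtif3 and Safb2 for Dntt (0.76 to 0.83) and Lcor, Frrs1 and Pabpn1 for Tcf7 (0.49 to 0.54).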

How the data were processed

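Single cells of 12 plates were profiled by scSTRT-seq. The authors deposited UMI counts per gene symbol and well, without normalization, 1 table per plate. The tables hold no gene without a UMI, so a gene missing from a table was read as 0. Tools named per the submitters' processing notes are featureCounts, SAMtools and UMI-tools, and the build is mm10. The strand setting is not given in the sources used here. Of 1152 wells 1020 were kept, by minimums of 1000 genes and 3000 UMIs and a mitochondrial share below 20%. No doublet caller was run on singly sorted cells.

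Counts were summed per origin code (1 AGM, 2 fetal liver and 2 bone marrow libraries) and compared with the quasi-likelihood test of edgeR 4.0.16 in R 4.3.3 after TMM and filterByExpr, in 1 model with 2 residual degrees of freedom, at a Benjamini-Hochberg adjusted p under 0.05 over 15472 genes. Errors of log2 fold changes are the change over the square root of F, an approximation. Shares of cells were compared over plates by an exact two-sided permutation test, adjusted over genes found in at least 5% of thinned cells of 1 plate. DESeq2 1.42.0, limma 3.58.1 and other alternatives are below. Nothing in the labels says that plates came from separate animals, so p-values may measure technical spread. Gene positions come from GENCODE M21 (GRCm38), windows at gene starts from RefSeq. The 9 genes and the lists were chosen with earlier results of these data known. Beside all 9, the text names up to 5 called genes per lymphoid list and comparison, by smallest adjusted p, and the 3 nearest genes of each. Intervals and limits from a count of 0 (3 counts) cover counting error only.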

Additional observations from a re-analysis of the deposited data

Results flagged for a closer look

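On 9 occasions 1 plate stood apart from the other 4 of its tissue, by a gap that exceeded Dixon's 95% value. 36 sets of 5 plates were examined, and chance gives about 1 in 20. In 4 of the 9 the other 4 plates were at 0, where any UMI sets a plate apart, and that rate does not apply. Ltb had 117 CPM on fetal liver plate 5, beside 385 to 432 on the others. Cd27 was found in 39.1% of thinned cells on bone marrow plate 5, beside 57.6% to 62.0%. Cd52 was found in 11.3% on bone marrow plate 3, beside 17.4% to 19.1%, and Ikzf1 in 24.7% on fetal liver plate 3, beside 36.3% to 40.7%. The others rest on few cells. Il7r had 4.92 CPM on bone marrow plate 5, from 1 cell, and 0 on the others. Tcf7 had 1.30 CPM and 1.10% of cells on fetal liver plate 4, and 0.135 CPM and 1.06% of cells on bone marrow plate 2, each from 1 cell.

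The 132 wells left out as cells held 48 UMIs of the 9 genes, in 22 wells, which is above the limit that a count of 0 allows. This was 445 CPM, beside 524 CPM in kept cells, whose mix of tissues differed.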

How the results depend on the processing

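No paired analysis was possible because plate numbers only count plates within a tissue, and origins differ between tissues. The log2 fold changes of the 9 genes had 683 alternatives. Of these 641 kept direction and side of the threshold, 12 lost the call, 16 gained one and 14 reversed. In the main fit 3 of the 9 were called in each comparison against AGM and 0 in the other. Most of the 641 were thus values that stayed uncalled. Of 108 alternatives for shares, 63 kept both, 43 lost the call, 2 gained one and 0 reversed. The cause was not tested. Genes called in fetal liver against AGM (748) numbered 1141 with DESeq2, 2170 with limma, 348 counting cells, 2218 with only the 2 tissues, and 479, 2186 and 2164 without fetal liver origin 2, bone marrow origin 1 and bone marrow origin 2. In bone marrow against fetal liver (732) they numbered 2127 with limma, 431 after thinning, 331 with only the 2 tissues, and 373, 365, 1718 and 1958 without fetal liver origins 1 and 2 and bone marrow origins 1 and 2. In bone marrow against AGM (1380) they numbered 3610 with limma, and 2748 and 2466 without bone marrow origins 1 and 2. Leaving out 1 plate gave 181 to 875, 117 to 741 and 329 to 1618, each lowest without fetal liver plate 4.

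Of the 9 genes, 5 passed in fetal liver against AGM with limma, with only the 2 tissues, and without either bone marrow origin, and 0 to 4 without 1 plate. In bone marrow against fetal liver 1 passed with limma, counting cells, or in cells of at least 2000 genes, 2 without bone marrow origin 2, and 0 without any 1 plate. In bone marrow against AGM 1 to 3 passed without 1 plate. Genes with a different share (2939) numbered 1817 at 4 UMIs or more, 0 without any origin and 0 to 3942 without 1 plate.

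None of the reversed values was called. Bone marrow against fetal liver gave 0.36 for Ltb counting cells, -0.13 for Cd27 without bone marrow origin 1, -3.45 for Il7r in cells of at least 2000 genes and -3.70 without bone marrow origin 2, and 0.054 for Ikzf1 without fetal liver origin 1. Bone marrow against AGM gave 0.86 for Il7r without bone marrow origin 1, and -0.26 for Cd52 and -0.47 for Satb1 counting cells. Leaving out 1 plate, Il7r ran from -4.99 to 3.19 in fetal liver against AGM and from -3.44 to 4.89 in bone marrow against fetal liver, and Ikzf1 from -0.17 to 0.016 there. In bone marrow against AGM Il7r ran from -7.77 to 7.32 and Cd52 from -0.012 to 0.89. DESeq2 moved the median of all genes in fetal liver against AGM to 0.16, beside 0.05.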
